A study of Mus musculus with 5 samples.

Results

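Long intergenic non-coding RNA (lincRNA) genes of the mouse were described here by the RNA polymerase that was transcribing them in embryonic stem cells and in embryonic fibroblasts. The members were the genes that the GENCODE annotation of mm9 types as lincRNA and whose longest transcript overlaps no other gene on the same strand: 1107 of 1273 lincRNA genes, among 31669 genes of all types without such overlap and 37273 in all. The choice used annotation only. Overlap on the opposite strand was allowed, and 637 of the 1107 members overlapped a coding gene there. RNA came from V6.5 embryonic stem cells (MESC, 3 samples, passages 12 to 14, grown with LIF on irradiated feeder cells) and from mouse embryonic fibroblasts (MEF, 2 samples, passage 2, from male E13.5 embryos, grown without LIF). Both derive from the cross C57Bl/6(f) x 129/Sv(m), and no further treatment or engineered allele was labelled for either. Global run-on sequencing (GRO-seq) lets polymerases already on the DNA of isolated nuclei extend their RNA with a brominated nucleotide, so that reads report engaged polymerase and its strand and not stored RNA.

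The samples of each cell type were deposited as 1 pooled file, so every comparison was made between 2 libraries, without a replicate check or p-value. All intervals are exact 95% intervals of counting error and cover no variation between cultures. PCR copies cannot be told from separate molecules, since no molecular identifier was given. In these bulk libraries, fewer cells of a type and less transcription per cell cannot be told apart.

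LincRNAs are transcribed by RNA polymerase II, spliced and capped like mRNAs, and have no long open reading frame. Many are transcribed in few cell types, and many start close to the start of a coding gene and run away from it on the other strand. A few have known roles, in X inactivation, at imprinted loci or in the stem cell state, while most members carry only a provisional name.

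Promoters were chosen for display by their promoter-window reads, which count 5′ ends on the sense strand from 50 bp before to 300 bp after the transcription start site (TSS). They show how unlike the DNA at read-rich lincRNA starts can be. Each runs 5′ to 3′ on the gene's strand in mm9, with 250 bases before the TSS and the first 50 bases transcribed, and with CpG dinucleotides in capitals.

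Gm2716 had a promoter window at least 4-fold denser in MESC. It lay at chr8:90642457-90642756 on the - strand, with 26 promoter-window reads in MESC and 2 in MEF, and held 23 CpG dinucleotides.
Gm2716: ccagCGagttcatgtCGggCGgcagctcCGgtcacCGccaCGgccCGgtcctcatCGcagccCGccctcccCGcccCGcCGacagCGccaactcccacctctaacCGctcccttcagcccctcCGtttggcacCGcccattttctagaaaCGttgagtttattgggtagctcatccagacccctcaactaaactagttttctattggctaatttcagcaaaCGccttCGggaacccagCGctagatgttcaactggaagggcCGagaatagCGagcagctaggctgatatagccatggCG

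4833412C05Rik was denser in MEF, with 2 reads in MESC and 46 in MEF, and its promoter at chr7:74948333-74948632 on the - strand held 13 CpG dinucleotides.
4833412C05Rik: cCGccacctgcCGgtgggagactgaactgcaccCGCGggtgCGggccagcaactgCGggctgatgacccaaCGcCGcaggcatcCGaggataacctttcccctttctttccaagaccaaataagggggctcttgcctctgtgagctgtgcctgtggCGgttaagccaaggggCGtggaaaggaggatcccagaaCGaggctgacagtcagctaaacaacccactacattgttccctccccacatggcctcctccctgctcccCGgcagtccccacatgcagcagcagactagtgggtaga

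The last 3 were read in both libraries. 4930555B11Rik (chr2:57033992-57034291, + strand) had 266 reads in MESC and 375 in MEF, Gm17690 (chr3:95976288-95976587, - strand) had 354 and 242, and 4921531C22Rik (chr2:179711308-179711607, + strand) had 124 and 324. They held 13, 23 and 44 CpG dinucleotides.
4930555B11Rik: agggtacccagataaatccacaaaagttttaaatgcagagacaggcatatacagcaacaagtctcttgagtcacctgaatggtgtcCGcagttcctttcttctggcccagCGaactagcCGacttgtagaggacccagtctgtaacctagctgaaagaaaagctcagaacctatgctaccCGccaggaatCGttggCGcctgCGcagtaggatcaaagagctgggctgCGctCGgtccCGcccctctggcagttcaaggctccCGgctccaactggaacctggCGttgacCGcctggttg
Gm17690: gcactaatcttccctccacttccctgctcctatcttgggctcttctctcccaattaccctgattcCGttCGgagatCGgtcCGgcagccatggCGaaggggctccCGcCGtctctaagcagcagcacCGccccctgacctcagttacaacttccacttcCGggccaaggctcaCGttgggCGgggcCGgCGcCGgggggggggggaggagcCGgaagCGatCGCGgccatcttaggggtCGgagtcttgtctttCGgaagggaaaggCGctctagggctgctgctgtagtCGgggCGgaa
4921531C22Rik: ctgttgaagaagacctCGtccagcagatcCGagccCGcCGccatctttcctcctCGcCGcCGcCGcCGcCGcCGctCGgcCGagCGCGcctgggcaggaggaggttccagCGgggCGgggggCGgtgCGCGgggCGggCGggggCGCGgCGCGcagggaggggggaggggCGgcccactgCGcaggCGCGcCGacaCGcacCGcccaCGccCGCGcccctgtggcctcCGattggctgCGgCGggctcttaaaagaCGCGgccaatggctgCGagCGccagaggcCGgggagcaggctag

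The 5′ ends fell close to the annotated TSS in 4 of these 5 cases. Median distances after the TSS in MESC were 23 bp at Gm17690, 48 bp at 4921531C22Rik and 56.5 bp at Gm2716. At 4833412C05Rik the MEF median was 40 bp. The reads of 4930555B11Rik instead had median distances of 260 bp in MESC and 270 bp in MEF, beyond the end of the printed stretch.

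The MESC library held 8571395 reads outside the mitochondrial genome and the MEF library 6571116, and members took 0.855% and 0.807% of them. Densities below are reads per kb scaled to these library totals (RPKM). The labelled cell types were checked with marker genes: 8 stem cell markers summed to 50.5 RPKM in MESC and 0.960 in MEF, where 3 were at 0, and 8 fibroblast markers summed to 2.20 and 107, with Lum at 0 in MESC. The 4 epithelial markers summed to 10.8 in MESC and 0.528 in MEF, the 6 macrophage markers to 10.7 and 22.9 and the 4 endothelial markers to 0.505 and 0.268, with none at 0. Cd68 made up 9.20 and 18.03 of the macrophage sums, while Csf1r held 1 read in MESC and 88 in MEF and Lyz2 1 and 93. The part of feeder or other cells in the lincRNA values was not tested.

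Most lincRNA genes were transcribed at a low level in both cell types. A gene was called active with at least 20 promoter-window reads, or with a whole-gene density whose exact Poisson lower bound exceeded that of DNA far from genes. This background was 0.187 reads per kb of 1 strand in the MESC library and 0.110 in the MEF library. By this rule 793 of 1107 members were active in MESC (71.6%, 68.9 to 74.3), beside 47.8% of all genes and 64.6% of coding genes. In MEF 682 were active (61.6%, 58.7 to 64.5), beside 43.9% of all genes and 60.7% of coding genes. Both libraries shared 627 active members (56.6%), beside 40.3% of all genes, and 259 (23.4%) were active in neither, beside 48.6%. The MESC share was 70.0% when that library was thinned to the MEF depth.

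Activity did not mean many reads. A member had a median of 16 whole-gene reads in MESC and 9 in MEF. In MESC 112 members were at 0 and in MEF 215, with 73 at 0 in both. At this depth a count of 0 allows up to 3 reads. Members with at least 50 reads numbered 309 in MESC and 221 in MEF, and 762 had fewer in both. The 11 members with the most reads held 25.8% of all member reads in MESC and 39.5% in MEF. The first of them, 9330185C12Rik, held 4859 of 73245 member reads in MESC and 11487 of 53061 in MEF, many at a single position.

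Per length, active lincRNA genes had lower densities than active coding genes. Their median was 0.441 RPKM in MESC and 0.430 in MEF, against 0.912 and 0.887 for coding genes. The models themselves were shorter, with a median of 7555 bp and 3 exons against 13840 bp and 6 exons.

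The densest members differed in how their reads were spread. Gt(ROSA)26Sor (chr6:113017422-113027185), whose locus is widely used to carry transgenes because it is active in most tissues, had a whole-gene density of 10.1 RPKM in both libraries from 849 reads in MESC and 650 in MEF. Its log2 ratio was 0.00, and no position held more than 3.85% of its reads. 5430416N02Rik had densities of 12.2 RPKM in MESC and 9.79 in MEF from 903 and 558 reads, also spread out. These genes were thus read along their length at nearly equal density in both cell types.

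In other dense members a single position held much of the count. Gm17667 had the highest MESC density, 31.6 RPKM from 2290 reads, and 53.5% of them had 1 position. Gm11335, head to head with the histone gene Hist1h4h, had 24.9 RPKM in MESC and 29.8 in MEF, with 62.8% and 54.9% of its reads at 1 position. 9330185C12Rik had 4859 reads in MESC and 11487 in MEF, the latter with 49.9% at 1 position. Counting each position once left 417 and 96 reads there and turned the log2 ratio of MESC over MEF from -1.62 to 1.67, a sign change at a gene under the 4-fold limit. At Gm17667 the log2 ratio fell from 2.10 to 0.41, which ended its call. Such concentration was limited to few members: 3 of 309 with at least 50 reads in MESC and 7 of 221 in MEF had 25% or more at 1 position.

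**Figure D1:**
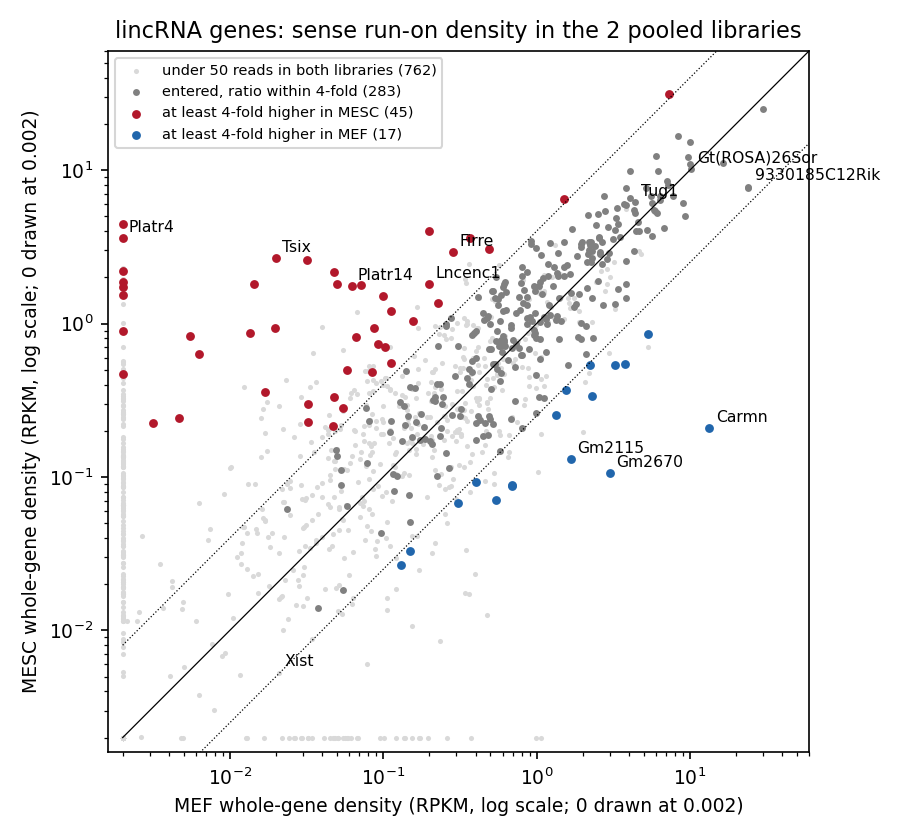
Whole-gene sense density of each of the 1107 lincRNA genes in MEF (horizontal, RPKM, log scale) and MESC (vertical, RPKM, log scale); each point is a gene, the solid line marks equal density and the dotted lines 4-fold differences. Most of the 345 genes with 50 or more reads in a library lie between the dotted lines, 45 lie above them and 17 below.

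The next comparison asked which lincRNA genes carried more polymerase in one cell type. Tsix, Platr4, Platr14, Lncenc1 and Firre were read in MESC and much less or not at all in MEF, while Carmn, Gm2115 and the partner gene of Wnt5a, Gm2670, were denser in MEF. A whole gene was compared if either library held 50 or more of its reads, and ratios of 4 or more were called, with counts under 3 raised to 3. Of 345 members that entered, 45 were called higher in MESC (interval of the share 9.68% to 17.1%), where the background over all genes was 7.71%. Another 17 were called higher in MEF (4.93%, 2.90 to 7.77), near the background of 5.29%. The interval of the ratio lay wholly beyond 4-fold for 33 of the 45 and 8 of the 17. The counts were 89 and 36 of 568 with a minimum of 20 reads, beside backgrounds of 10.4% and 5.89%. They were 27 and 22 of 258 when only the MESC reads of 35 bases were used, beside 5.31% and 6.61%.

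The median log2 ratio of entered members was 0.42, beside 0.26 for all genes and 0.26 for coding genes. Scaling moved all of these together: with TMM factors the medians were 0.21 and 0.05 for members and all genes. With the median ratio of all genes set to 0, the members' median was 0.16. Ratios below are from total reads, so 0.26 is the point of no change relative to all genes.

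Tsix (chrX:100626856-100680296, + strand), the antisense repressor of Xist, had the highest ratio with counts under 3 set to 3. It held 1220 reads in MESC and 7 in MEF, a ratio of 134 (64.7 to 333). Xist itself, the RNA that coats the inactive X chromosome, held 1 read in MESC and 3 in MEF on its own strand, while 522 MESC reads and 1 MEF read lay on the opposite strand of its model, where Tsix runs. Xist was thus near 0 in both libraries. Enox, named Jpx in RefSeq and known as an activator of Xist, held 70 reads in MESC and 95 in MEF, a log2 ratio of -0.82.

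Transcripts known from stem cells held many more reads in MESC. Platr4 (C430002E04Rik, chr3:41292726-41297114), one of the pluripotency-associated transcripts, had 135 MESC reads and no MEF read. With 3 reads taken as the floor of a library, it was at least 34.5-fold higher in MESC; the exact interval of the ratio, which also covers the error of the MESC count, starts at 27.7. Platr14 (4930500J02Rik, chr2:104399341-104411586) held 185 and 5, a ratio of 28.4 (11.9 to 88.4). Lncenc1 (Gm11019, chr13:98204925-98266960), an RNA abundant in naive stem cells, held 961 and 81 reads, a ratio of 9.09 (7.25 to 11.6). Tunar (2810011L19Rik), an RNA needed for stem cell self-renewal and neural differentiation, held 93 and 10 reads, a ratio of 7.13 (3.71 to 15.4).

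Genes were picked from 6 lists of known non-coding RNAs and matched by symbol or synonym. By that match 23 were members, of which 16 entered and 6 held fewer than 20 reads in both libraries. The list of RNAs enriched in stem cells had 8 members. Of these 6 entered, 3 were called higher in MESC and 1, C430049B03Rik, higher in MEF with 10 reads in MESC and 53 in MEF; the median log2 ratio was 2.29, beside 0.26 for all genes. In the embryonic and developmental list 4 of 8 members entered, and 2 of them, Tunar and Wt1os, were higher in MESC. Fendrr, a regulator of mesoderm, held 15 reads in each library, and Hottip, which lies at the HoxA cluster, held 2 in MESC and 1 in MEF. Of 3 members at the X inactivation centre 2 entered and 1, Tsix, was called. From the list of nuclear-retained or abundant RNAs 3 entered, and from the imprinted list 1, with no call. No microRNA host of the lists was matched to a member. The listed symbol Mir143hg was not found, so Carmn, described below as host of Mir143, is a member outside these counts.

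Broadly used non-coding RNAs were closer between the libraries. Tug1 held 480 reads in MESC and 260 in MEF, with densities of 6.21 and 4.39 RPKM. Oip5os1 (1700020I14Rik), the RNA also known as Cyrano, held 284 and 184. These differences were small beside those of the stem cell transcripts. Pvt1, the neighbour of Myc, held 3016 and 3247 over its long model, with a log2 ratio of -0.49. Trp53cor1 (Gm16197), a p53 target, held 321 and 85 reads and Miat, a nuclear RNA, 244 and 63, with log2 ratios of 1.53 and 1.57. Nespas, the imprinted antisense RNA of the Gnas locus, held 634 and 234, a log2 ratio of 1.05. None of these 6 passed 4-fold.

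Members with provisional names filled the rest of the upper end. Gm7782 held 397 reads in MESC and 3 in MEF, a ratio of 101.5 (34.5 to 494). RefSeq carries that symbol as a pseudogene of Hmgb1, so reads of a related copy cannot be told apart there. 4930461G14Rik (chr9:58302980-58317430) held 231 reads and 0, at least 59.0-fold higher in MESC by the same floor, with an exact interval from 47.6. Gm17406 held 195 and 1, a ratio of 149.5 (26.5 to 5935), and Gm17335 held 163 and 1, a ratio of 125 (22.1 to 4966). The wide intervals show how little the single MEF read fixes those ratios.

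Better counted were Gm16627 with 934 reads and 16, a ratio of 44.8 (27.4 to 78.6), C330002G04Rik with 309 and 5, a ratio of 47.4 (20.1 to 147), and 2410003L11Rik with 381 and 8, a ratio of 36.5 (18.3 to 85.2). Gm16233 held 139 reads and 0, at least 35.5-fold higher in MESC by the same floor, with an exact interval from 28.5. In all, 8 of the 45 genes higher in MESC were at 0 in MEF. One of the 45 carries the symbol Tdrd5, a coding gene of the germ line, with 93 reads in MESC and 1 in MEF; the annotation types this model as lincRNA.

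Firre (6720401G13Rik, chrX:47908921-47988438), an X-linked RNA that takes part in nuclear organisation, was singled out after its values were seen because it was among the best counted. It held 1991 reads in MESC and 149 in MEF, a ratio of 10.2 (8.67 to 12.2), and its promoter window held 83 and 3, a ratio of 21.2 (7.01 to 105).

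At the lower end, Carmn (Gm16908, chr18:61810628-61825191), the host RNA of Mir143 and Mir145 and a marker of smooth muscle, held 26 reads in MESC and 1283 in MEF. It was 64.4-fold higher in MEF (43.7 to 98.9), with 13.41 RPKM there, the fifth highest density of a member in that library. The smooth muscle actin gene Acta2, on the fibroblast marker list, held 19 and 2589 reads. Gm2115 (chr7:91677485-91726847) held 55 and 547 reads, 12.97-fold higher in MEF (9.82 to 17.45). Both were thus read in MEF far above the counting error, with a low but non-zero count in MESC.

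The other genes of the lower end rested on fewer reads. Gm2670 (chr14:29321260-29324578) held 3 and 66, 28.7-fold higher in MEF (9.40 to 142.7). 4833412C05Rik, whose promoter is printed above, held 14 and 85, 7.92-fold higher (4.47 to 15.1), and AI115009 held 11 and 66, 7.83-fold higher (4.10 to 16.4). Gm9530, C430049B03Rik, 2810430I11Rik, Gm17501 and F420014N23Rik held 10 to 34 reads in MESC and 53 to 159 in MEF, with log2 ratios from -2.95 to -2.61. No gene called higher in MEF was at 0 in MESC.

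**Figure D2:**
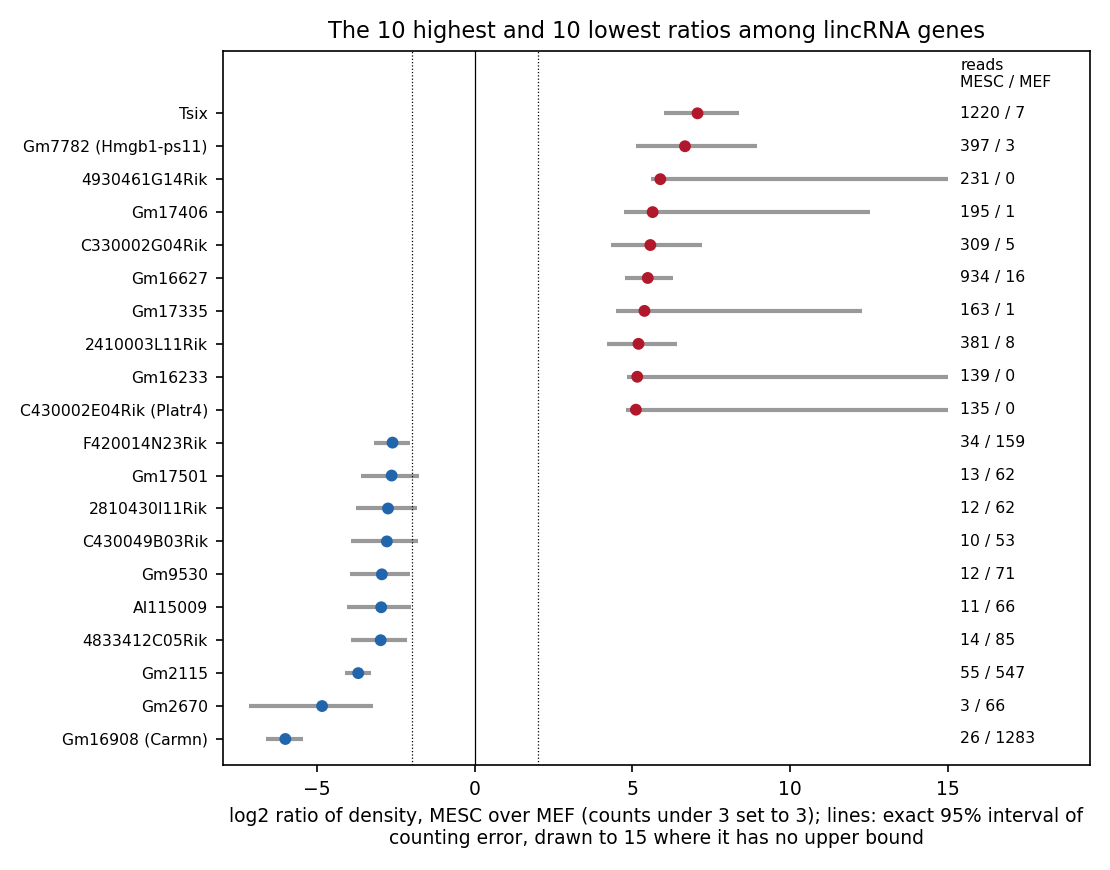
Log2 ratio of whole-gene density, MESC over MEF, for the 10 highest and 10 lowest ratios among entered lincRNA genes; points use 3 reads for lower counts, lines are exact 95% intervals of the counted ratio, and the numbers at the right are reads. All 20 points lie beyond the dotted 4-fold lines, from Tsix at 7.06 down to Carmn at -6.01, and the intervals are widest where a library holds 0 or 1 read.

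Promoter windows gave no call that went against a whole-gene call. Most of the window lies inside the gene, so both counts share reads and opposite calls were unlikely from the start. With at least 20 promoter-window reads in 1 library 187 members entered, and 21 were called higher in MESC (11.2%, 7.09 to 16.7), beside 7.36% of all genes. Another 6 were called higher in MEF (3.21%, 1.19 to 6.85), beside a background of 3.18%. Members higher in MESC made up 77.8% of these calls, and 65.2% with the median ratio of all genes set to 0. All genes leaned the same way, with 350 called higher in MESC and 151 in MEF, and 5.89% and 4.59% with that scaling. With the MESC reads of 35 bases alone the members' share was 46.7%, from 7 promoters higher in MESC and 8 higher in MEF. All genes then stood at 4.06% and 5.49%. With those of 36 bases the members' share was 63.6%, from 7 and 4, beside 6.12% and 5.89% of all genes. Of 161 members that entered both comparisons, 12 were higher in MESC over the whole gene and 11 of these also at the promoter. All 3 that were higher in MEF were also higher there at the promoter, and none were called in opposite directions. From the promoter side, 11 of the 21 higher in MESC and 3 of the 6 higher in MEF had that call over the whole gene. Counting each position once left 10 of 163 promoters higher in MESC, beside 4.41% of all genes.

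The largest promoter difference at a gene not read in MEF was at Gm17520, which starts 217 bp from the start of F11r, the gene of a tight junction protein. It held 58 promoter-window reads in MESC and none in MEF, a difference of at least 14.8-fold by the floor of 3 reads, with an exact interval from 11.7. Platr14 (4930500J02Rik) held 41 and 1, a ratio of 31.4 (5.33 to 1271). In MEF the clearest were Carmn (Gm16908) with 1 and 49 reads and 4833412C05Rik with 2 and 46. Tsix had 1 promoter-window read in MESC and 0 in MEF although its gene was densely read, so its annotated TSS carried no peak of reads.

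The promoters with most reads were used in both cell types. Gm17690, head to head with the splicing factor gene Sf3b4, held 354 promoter-window reads in MESC and 242 in MEF, and Gm10501, next to Lsm2, held 239 and 63. The whole model of Gm10501 held 185 reads in MESC, so part of its window reads lay before the annotated TSS. 4930555B11Rik held 266 and 375, and its whole-gene counts of 277 and 392 came down to 63 and 73 with each position counted once. 4921531C22Rik, head to head with Taf4a, held 124 and 324, and 28.4% of its MEF reads had 1 position.

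Many members lay beside a coding gene that starts on the other strand. Such head-to-head pairs, with the starts within 1000 bp, took in 543 of 1107 members at a median distance of 193 bp. In 344 of them the coding gene lay upstream, and in 199 the starts of the models overlapped. Where both genes held at least 20 reads, the member was the denser one in 136 of 310 pairs in MESC (43.9%, 38.3 to 49.6) and 105 of 245 in MEF (42.9%, 36.6 to 49.3). The median log2 density of member over partner was -0.28 in MESC and -0.25 in MEF. Strands are counted apart, so these levels do not include sense reads of the partner. Reads that start at the partner's promoter and run away from the partner fall on the member's strand. They cannot be told from the member's own, here or in the pair ratios below.

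LincRNA gene and coding partner tended to differ between the libraries in the same direction. In 205 pairs with both genes entered, the log2 ratios had a Pearson correlation of 0.71 and a Spearman correlation of 0.54, across genes that share both libraries. Of 24 members called, 14 had a partner beyond 4-fold in the same direction and 0 in the opposite one. Among all 10035 entered coding genes, 7.2% were called higher in MESC and 5.29% higher in MEF. With the 35 pairs left out whose coding gene overlapped another gene on its strand, the Pearson correlation over 170 pairs was 0.71.

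Among the pairs higher in MESC, Gm14261 held 75 reads and 0, and its partner Sall4, a stem cell transcription factor gene, held 787 and 1. Gm17520 held 109 and 0, and its partner F11r 470 and 16. Gm16762 held 67 and 1, and its partner Slc27a2, a fatty acid transporter gene, 882 and 1. AI314831, named Wt1os, held 211 and 19 beside 355 and 38 at Wt1. In each of these pairs both genes were well read in MESC and held few reads in MEF.

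5730420D15Rik held 84 reads in MESC and 1 in MEF beside 521 and 78 at Socs2, the gene of a cytokine signalling inhibitor, so the member had the higher ratio. Gm16733 held 107 and 1 beside 281 and 14 at Bcam, the gene of an adhesion protein. A930024E05Rik held 236 and 29 beside 1689 and 289 at Kdm2b, a histone demethylase gene. 1810019D21Rik held 150 and 27 beside 100 and 11 at Esrp2, a splicing regulator gene.

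In the other 5 pairs both genes were higher in MEF. Gm2670 held 3 reads in MESC and 66 in MEF beside 58 and 507 at Wnt5a, a secreted signal, whose start lies 2 bp inside the member. 2810430I11Rik held 12 and 62 beside 324 and 8202 at the collagen gene Col5a1. Gm17501 held 13 and 62 beside 362 and 1189 at Cyr61, a matrix protein gene. Emx2os held 73 and 296 beside 22 and 78 at the homeobox gene Emx2, and Gm4117 held 34 and 127 beside 235 and 1063 at Vcan, the gene of a matrix proteoglycan.

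A further 10 members were called while the partner was not. Gm17561 held 314 reads in MESC and 12 in MEF, a log2 ratio of 4.33, while the zinc finger gene Wiz held 376 and 161, a log2 ratio of 0.84. 4930566F21Rik held 130 and 4 beside 272 and 113 at Gpn1, and 2500002B13Rik held 167 and 12 beside 79 and 30 at Sap30. F420014N23Rik went the other way, with 34 and 159 reads beside 86 and 55 at Dtx3. Promoter windows in these 4 members held at most 19 reads. Among the other 6, 9430065F17Rik held 87 and 12 in its promoter window and Gm16765 held 15 and 58. For 3 of the 10 the partner lay just under the limit, with log2 ratios of 1.93 at Dscaml1, 1.88 at Bcat2 and -1.90 at Fbxo32.

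Other arrangements were described in the same way. Both genes entered for 25 members that start within 10000 bp past the end of a coding gene on the same strand. Their Pearson correlation was 0.02 and their Spearman correlation 0.15. Over the 13 of them that are not also head to head these were 0.08 and 0.33. For 64 members at other positions, against the nearest coding gene, they were 0.42 and 0.44. Among called members, the coding gene was beyond 4-fold in the same direction for 0 of 3 past the end and 4 of 18 at other positions. The difference between these correlations was not tested.

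**Figure D3:**
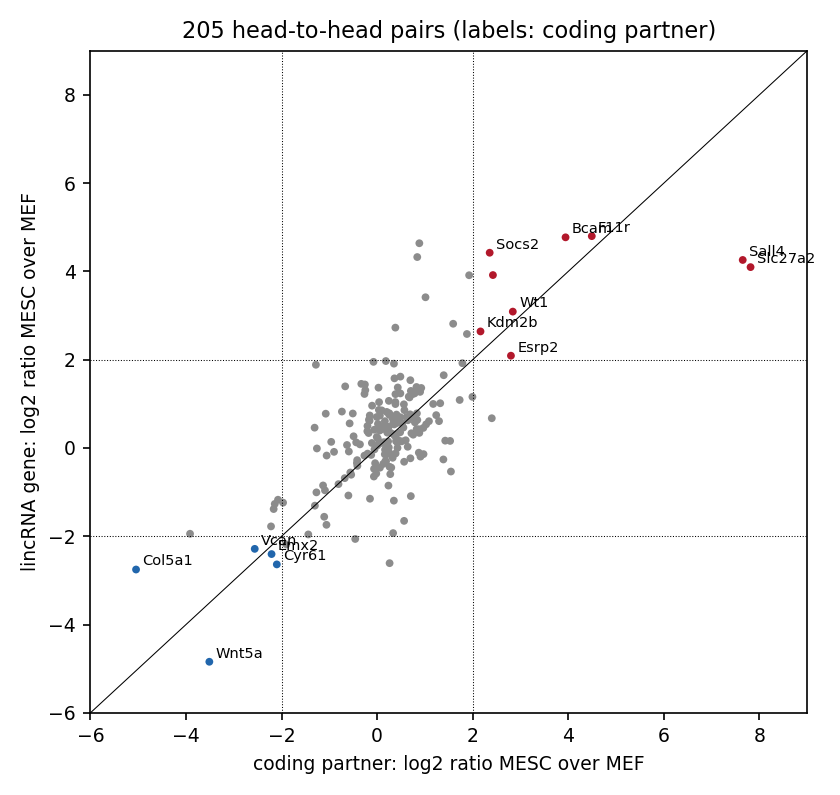
Log2 ratio of whole-gene density, MESC over MEF, of the coding partner (horizontal) and of the lincRNA gene (vertical) for the 205 head-to-head pairs with both genes entered; each point is a pair, dotted lines mark 4-fold and the solid line equal ratios. The 14 pairs beyond 4-fold in both genes are coloured, most of them named by the coding partner, 9 at the upper right and 5 at the lower left.

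Position and promoter sequence split the members. A promoter was called CpG-rich with an observed over expected CpG ratio of at least 0.6 and at least 50% GC in the 300 bases around the TSS. This held for 472 of 1107 members (42.6%), beside 42.5% of coding genes and 29.9% of all genes. CpG-rich members were active more often, 83.7% in MESC and 80.9% in MEF, than the CpG-poor, 62.7% and 47.2%. Coding genes were split more widely, with 94.3% and 90.7% of the CpG-rich active and 42.7% and 38.5% of the CpG-poor. Accordingly 49.8% of the 848 members active in 1 or both libraries were CpG-rich, and 19.3% of the 259 active in neither.

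Differences between the libraries were found more often at CpG-poor promoters. Of 208 entered CpG-rich members 20 were called in either direction (9.62%, 5.97 to 14.5), and of 137 CpG-poor members 42 (30.7%, 23.1 to 39.1), so that the intervals did not overlap. Coding genes showed the same order, with 8.35% and 22.2%. Head-to-head members were called in 25 of 216 cases (11.6%) and the others in 37 of 129 (28.7%).

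The classes were then crossed. CpG-rich head-to-head members were called in 11 of 165 cases (6.67%, 3.38 to 11.6) and CpG-rich members elsewhere in 9 of 43 (20.9%, 10.0 to 36.04). The CpG-poor had 14 of 51 (27.5%, 15.9 to 41.7) head to head and 28 of 86 (32.6%, 22.8 to 43.5) elsewhere. The interval of the first class lay below those of both CpG-poor classes, and the intervals of the other 3 classes overlapped each other.

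**Figure D4:**
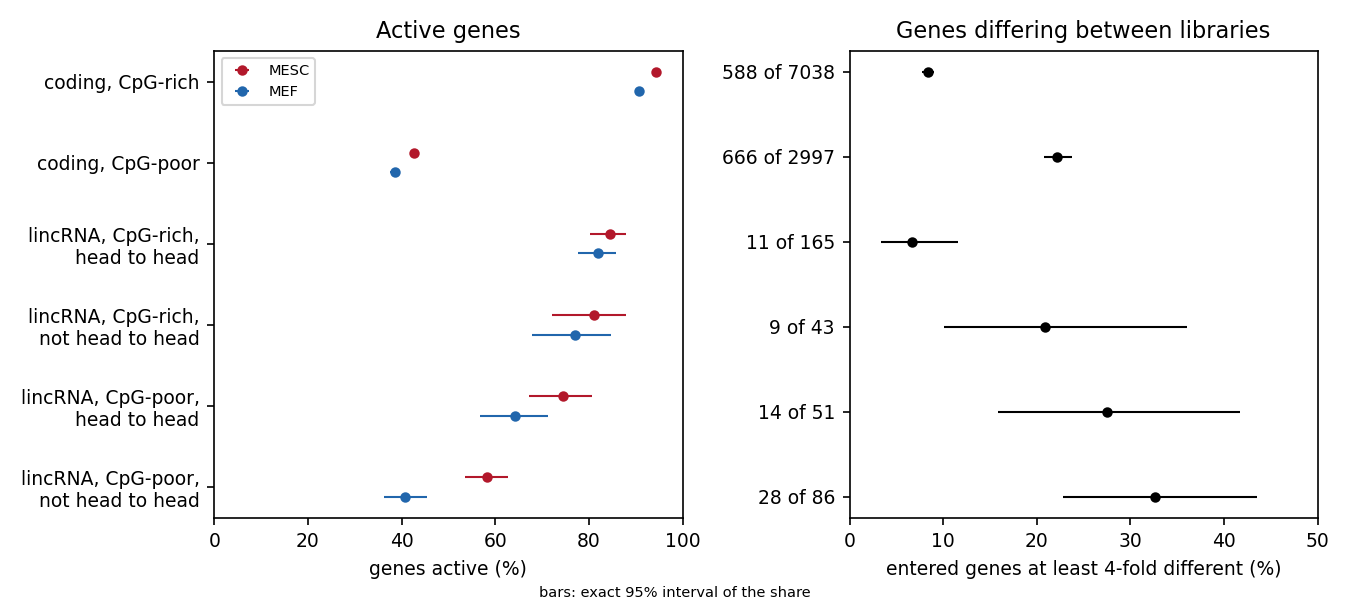
Share of genes active in each library (left, percent) and share of entered genes at least 4-fold different in either direction (right, percent, with the counts) by promoter class, for coding genes and lincRNA genes; bars are exact 95% intervals. CpG-rich head-to-head lincRNA genes were active in 84.5% in MESC and differed in 6.67%, and CpG-poor ones away from coding starts were active in 58.2% and differed in 32.6%.

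Short motifs were searched for in the same 300 bases on each strand separately. The TATA box letters TATAAA lay on the gene's strand in 4.25% of members, beside 9.22% of coding genes and 10.4% of all genes. The polyadenylation signal AATAAA lay on the gene's strand in 9.39% of members, beside 10.9% and 14.8%, and on the other strand in 10.0%, beside 9.05% and 11.7%. The splice donor letters GGTAAG were found in 3.34% on the gene's strand and in 5.69% on the other, beside 5.23% and 3.51% of coding genes. A match of letters is a description of sequence only.

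Around the TSS of active members, reads gathered just downstream on the sense strand and upstream on the other. Profiles counted distinct positions per 50 bp, for active genes of at least 4000 bp. In MESC the sense peak of 308 head-to-head members was 3.19 positions per gene, and that of 8416 coding genes with no other TSS near was 2.99. The 261 members not head to head peaked at 1.56. From 2000 to 4000 bp the means were 0.280, 0.460 and 0.220 for head-to-head members, coding genes and other members. The head-to-head members thus lay near coding genes at the start and below them within the gene. In MEF the sense peaks were 2.60, 2.41 and 1.40 in the same order.

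**Figure D5:**
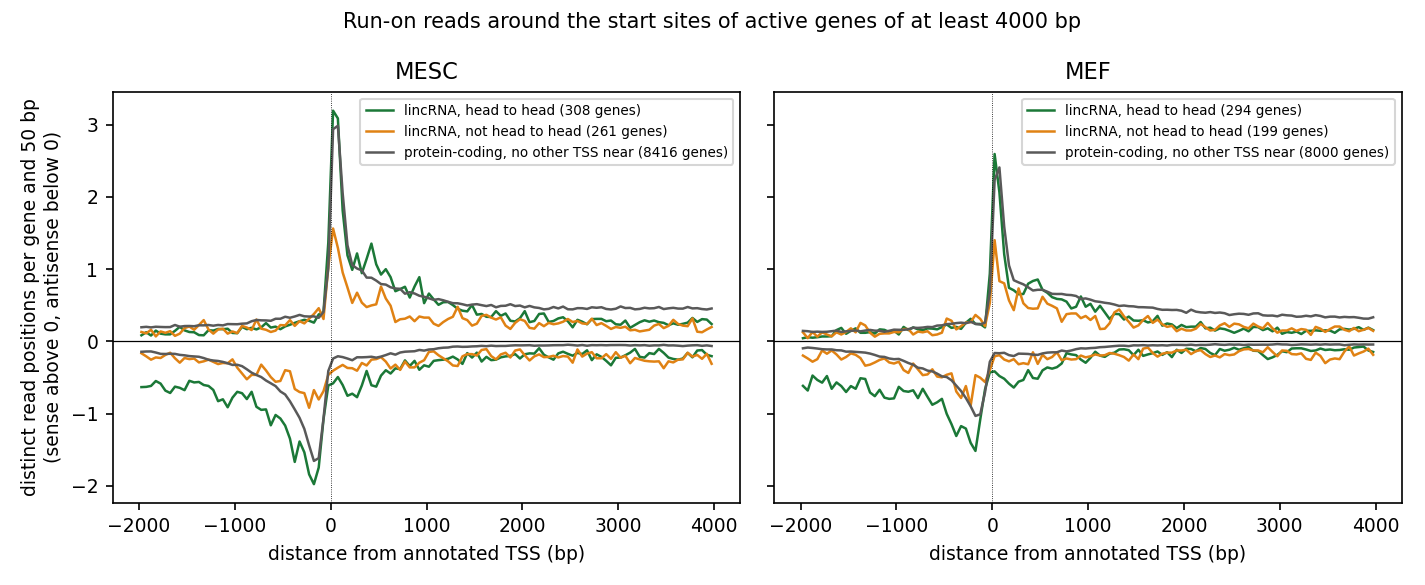
Mean number of distinct read positions per gene and 50 bp (vertical; sense above 0, antisense drawn below 0) by distance from the annotated TSS (horizontal, bp) in MESC (left) and MEF (right), for active lincRNA genes head to head with a coding gene, other active lincRNA genes and active coding genes with no other TSS near. Antisense positions upstream are most frequent for the head-to-head lincRNA genes, where they include the coding partner, with a peak of 1.98 in MESC against 1.66 for coding genes and 0.920 for other lincRNA genes.

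Promoter-proximal pausing was measured as the pausing index, promoter-window density over the density from 1000 bp after the TSS to the end, in genes of at least 2000 bp. Pausing is a halt of polymerase shortly after the start, before it is released into the gene. Of 156 members with at least 20 promoter-window reads in MESC, 155 had an index of at least 2, beside 96.6% of all genes. In MEF it was 99 of 100, beside 97.2%. The entry rule nearly fixes these shares, so they say little of the members.

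With entry by at least 20 reads in the gene body instead, 64.9% of 359 members in MESC and 59.5% of 257 in MEF had an index of at least 2, with coding genes at 67.5% and 65.9%. Members had a median index of 4.89 in the MESC library, where coding genes had 4.11, and of 3.73 in the MEF library, where coding genes had 3.94. By that measure the medians lay close together, while the members were spread more widely. The lower quartiles were 0.615 for members and 1.33 for coding genes in MESC, and 0.427 and 1.21 in MEF. The upper quartiles were 13.47 and 10.22 in MESC, and 11.18 and 10.39 in MEF. With entry by promoter-window reads the medians were 22.37 for members and 10.75 for coding genes in MESC, and 31.39 and 14.19 in MEF. That entry selects on the promoter-window reads from which the index is built.

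The highest indices came from members with few body reads. Gm2716 had an index of 600 in MESC (272 to 1456) from 26 promoter-window and 9 body reads over a model of 73710 bp. 1700003D09Rik, head to head with Stard3, had 553 (147 to 4676) from 59 and 2 reads. 4930471M09Rik had 411 in MESC (235 to 785) from 199 and 13, and 151 in MEF (79.0 to 319). Its whole model held only 109 reads in MESC and 43 in MEF, fewer than its promoter window. Many of the window's reads thus lay in the 50 bp before the annotated TSS. In MEF 4930558J18Rik had the highest, 626 (274 to 1758), from 76 and 6 reads. Polymerase was thus read at these starts with very little along the rest of the model.

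Upstream antisense transcription, in which a promoter also fires away from its gene, was counted in the 500 bp before the TSS of active members with no other annotated TSS within 2000 bp. At least 5 such reads were found at 117 of 283 members in MESC (41.3%, 35.5 to 47.3), beside 46.6% of all genes and 50.8% of coding genes. In MEF it was 67 of 207 (32.4%, 26.1 to 39.2), beside 37.4% and 40.1%. The upper bound in MESC lay below the coding share.

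Some members had far more upstream antisense than sense reads. Gm17712 held 803 antisense reads in MESC and 185 in MEF, against 8 and 4 in its promoter window. BB557941, near Nr4a2, held 271 and 387 antisense against 30 and 10. Its antisense window takes in the promoter window of 4930555B11Rik, so 266 and 375 of those reads are the ones given above for that member. Gm17300 held 604 and 218, against 0 and 0, and starts 136 bp from the start of Rcc1, a gene for a regulator of Ran. C130036L24Rik held 208 and 100 beside the nucleolin gene Ncl, with 60 and 17 promoter-window reads of its own. Where the member is head to head, the antisense window overlaps the coding gene.

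Seen from the coding side, genes with an annotated lincRNA partner held more upstream antisense reads. That window often takes in the start of the member, whose own sense reads are then counted. The grouping thus partly sets the outcome, and no conclusion is drawn from it. Coding genes with a member head to head had at least 5 in 64.9% of 416 cases in MESC (60.1 to 69.5), against 50.8% of 9486 with no other TSS near. Among CpG-rich promoters the shares were 71.9% (66.5 to 76.9) and 66.3% (65.0 to 67.5), with overlapping intervals. In MEF they were 60.6% (54.8 to 66.2) and 52.7% (51.4 to 54.1). The median number of sense promoter-window reads in the CpG-rich classes was 11 and 12 in MESC and 8 in both in MEF.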

How the data were processed

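Run-on RNA from 3 MESC and 2 MEF samples was sequenced by the authors, who enriched brominated RNA after base hydrolysis, per the labels' protocols. Alignment with Eland to mm9 and removal of reads in repeats similar to rRNA are stated in the series design text. Not given in the sources used here were Eland's version and its handling of reads with several matches. Each line of a deposited file is 1 aligned read, which makes the unit a raw count, and per the file headers all samples of a cell type were put together. No read carries a sample name, so the edgeR test planned for separable samples was not made. Deposited signal tracks and raw sequences were left out.

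Listed positions were checked against the genome on every 400th read: as a 5′ end counted from 1, with at most 2 mismatches, 93.0% of MESC and 95.5% of MEF reads matched. Distinct positions made up 74.7% and 71.4% of nuclear reads, and 1-kb bins with over 0.2% of all reads held 11.9% and 16.4%; those reads stayed in the total. Gene models were the longest transcripts of the GENCODE annotation for NCBIM37. RefSeq gave a symbol for 642 of 1107 members, 79 of them different from the annotation's.

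Ratios have exact conditional Clopper-Pearson intervals, shares Clopper-Pearson intervals, both at 95%. Counts under 3 were set to 3 for calls at 4-fold. The ratio and its interval were tested on simulated data. Calculations used Python 3.11.15, numpy 2.4.6, pandas 2.3.3 and scipy 1.17.1, with TMM factors from edgeR 4.0.16 in R 4.3.3. Alternatives changed the scaling, duplicate counting, depth, MESC read length, read minimums, windows, TSS and member rule.

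Named genes were those with the 10 highest and 10 lowest ratios, the 6 highest densities and 5 highest promoter counts, pausing indices and upstream antisense counts per library, the 5 that changed most when each position is counted once, and list members with at least 20 reads; those named outside it, such as partners' lincRNA genes, were chosen after their values were seen. Members and lists were chosen with earlier results of these data known. Some promoter sequences and 1 pair are not reported here.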

Additional observations from a re-analysis of the deposited data

How the results depend on the processing

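The counts of calls moved most with the read minimum, which also sets how many genes enter. Whole genes called higher in MESC numbered 89 of 568 at a minimum of 20 reads, beside 10.4% of all genes. They numbered 103 of 941 at 3 and 29 of 184 at 100, beside 8.66% and 6.2%. The reported minimum gave 45 of 345, beside 7.71%. Whole genes higher in MEF numbered 36, 47 and 8 in the same order, beside 5.89%, 5.33% and 5.02%, against 17 beside 5.29%. Promoters higher in MEF numbered 12 of 291 at a minimum of 10 and 3 of 93 at 40, against 6 of 187. All genes stood at 3.99%, 2.31% and 3.18%. Promoters higher in MESC numbered 6 of 93 at 40, against 21 of 187, beside 6.18% and 7.36% of all genes. Counting each position once left 10 of 163 promoters higher in MESC, beside 4.41% of all genes. MESC reads of 35 or 36 bases were taken alone as a technical split. The 35-base reads gave 27 of 258 whole genes higher in MESC, beside 5.31% of all genes. Each split gave 7 promoters, of 128 and 137 entered, beside 8 and 4 higher in MEF. The cause of that difference was not tested. Members higher in MESC were 72.6% of whole-gene calls, and 55.1% with the 35-base reads. Among all genes 822 were called higher in MESC and 564 in MEF, and with the 35-base reads 5.31% and 6.61%.

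Active shares were 65.1% in MESC and 54.9% in MEF at 2 times the intergenic background. The MESC share with a pausing index of at least 2 was 100.0% after thinning and 95.3% with members overlapped only by small genes kept; with entry by 20 body reads, chosen after seeing the data, it was 64.9%, and 59.5% in MEF. Upstream antisense shares were 24.4% and 17.4% at 10 reads and 51.9% and 43.0% in 1000 bp. The other 56 values stayed within 1.5 times the reported count or within the interval of the reported share. Among them, promoters higher in MESC were 15 of 187 with median-ratio scaling, beside 5.89% of all genes. With thinning they were 15 of 167, beside 6.12%. Whole genes higher in MEF were 22 of 345 with median-ratio scaling, beside 6.48%.

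For 25 called genes with a rule-based name, 258 of 262 alternative values kept direction and call; in 13 further cases, 8 of them at a minimum of 100 reads, the gene no longer entered and so had no call. The 4 others, all at Gm17667, kept the direction below 4-fold. Its log2 ratios were 1.84 and 1.89 under median-ratio and TMM scaling, 0.41 with positions counted once and 1.15 with 35-base reads. A read minimum decides only whether a gene enters and leaves its ratio as it was. The 25, 25 and 17 values at minimums of 3, 20 and 100 reads thus kept the call by design. Most of the 25 genes were named for their extreme ratios, so these values say little of other members. No paired analysis was possible because the reads carry no sample name; the replicate block and the fits without each replicate were not run for that reason. Depth limits members under 50 reads in both libraries, 762 of 1107, whose ratios were not read.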
